A study of Mus musculus with 9 samples.

Results

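Small structural and catalytic RNAs were examined in mouse lung: 7SL RNA (Rn7s1 and Rn7s2), 7SK RNA (Rn7sk), the RNAs of ribonuclease MRP (Rmrp) and ribonuclease P (Rpph1), U1 spliceosomal RNA (Rnu1a1), telomerase RNA (Terc) and the Y RNAs Rny1 and Rny3. They were taken by gene symbol from the deposited transcript table on the mouse build mm10, which gave 9 genes with 1 transcript each, of 45777 genes in all. The groups EA-BN-H, COPD and NC had 3 libraries of lung RNA each, 9 in all, from male C57BL/6N mice. EA-BN-H mice received LPS at 0.5 mg/kg with CSC, a condensate of cigarette smoke, at 12.5 mg/kg through the nose on days 1, 6 and 13, and 200 mg/kg of EA-BN, the ethyl acetate fraction of Boehmeria nivea leaves, by mouth each day from day 1 to day 14. COPD mice received the same LPS and CSC with the oral vehicle, 2% DMSO, and NC mice received PBS through the nose with that vehicle. All lungs were collected on day 15, and EA-BN-H mice also took the DMSO vehicle. The age of the mice is not given in the sources used here, and LPS with CSC over this period is an induced model of COPD. Nothing in the labels says more of the 3 replicates than that they are separate lung samples, so p-values measure the spread between these samples.

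As background, these RNAs act as parts of RNA-protein particles and are not translated. 7SL is the scaffold of the signal recognition particle, which brings ribosomes making secreted proteins to the endoplasmic reticulum, and lung epithelium secretes surfactant and airway proteins. 7SK holds the elongation kinase P-TEFb in an inactive complex. RNase P trims the leader of tRNA precursors, and RNase MRP, which shares most of its proteins, cuts precursor ribosomal RNA. U1 RNA pairs with the 5′ splice site, and Terc carries the template for telomere repeats. Y RNAs bind the Ro60 protein. RNA polymerase III makes 7SL, 7SK, both RNase RNAs and the Y RNAs, while RNA polymerase II makes U1 RNA and Terc.

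The sequences of Rmrp and U1 RNA are shown because the largest fold changes between EA-BN-H and the other groups fell on them. Each is the GENCODE M21 transcript on mm10. The capitals in Rnu1a1 mark the bases that pair with the 5′ splice site, and no part of Rmrp is marked. Rmrp lies at chr4:43492788-43493058 on the minus strand, where it overlaps an exon of Ccdc107 on the other strand. Rnu1a1 lies at chr11:87422867-87423030 on the plus strand, inside an intron of Tex14. Of the others, Rpph1 lies at chr14:50807449-50807767 over an exon of Ccnb1ip1 on the same strand, and Rn7sk at chr9:78175303-78175633, Terc at chr3:96414437-96414859, Rny1 at chr6:47788069-47788180 and Rny3 at chr6:47781624-47781725 overlap no other annotated gene.
Rmrp: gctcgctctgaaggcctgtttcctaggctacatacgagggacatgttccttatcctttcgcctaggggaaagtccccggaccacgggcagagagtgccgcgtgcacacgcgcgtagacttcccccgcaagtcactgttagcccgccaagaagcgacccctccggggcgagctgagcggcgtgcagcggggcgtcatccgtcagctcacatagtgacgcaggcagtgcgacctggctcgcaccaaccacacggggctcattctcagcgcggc
Rnu1a1: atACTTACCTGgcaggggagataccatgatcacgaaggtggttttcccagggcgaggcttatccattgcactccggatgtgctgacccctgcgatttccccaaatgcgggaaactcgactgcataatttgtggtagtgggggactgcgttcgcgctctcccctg

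The transcripts of Rn7s1 and Rn7s2 are 100% identical, which means that a read from 1 of them matches the other equally well. The table gave Rn7s1 between 1.01 and 1.13 times the counts of Rn7s2 in each library, and the division between them carries no information on which gene was transcribed. Their sum is used as 7SL in shares, ratios and correlations. The fits of fold changes took Rn7s1 and Rn7s2 separately, so these are not independent results. Rmrp, Rpph1, Rn7sk, Terc and Rny3 had no other annotated gene at 90% identity or more over at least 90% of their length. 7SL had 1 besides its own pair, Gm24105 with 1247 counts, and Rny1 had 2, neither of which was analysed here. Rnu1a1 had 35, of which 5 were in the table with 3866 counts over all libraries. Of these counts, 3451 are those of the whole gene Creb5, which matched through a processed transcript. The rest of the 35 were not in the table, and some, such as Gm22068 and Gm22317, are 100% identical to Rnu1a1. The counts of Rnu1a1 are therefore uncertain. Whether the counting used strand is not stated, so that reads of Rmrp and of the antisense exon of Ccdc107 cannot be told apart.

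The libraries held between 25232402 and 42156219 estimated counts. EA-BN-H replicate 3 stood apart: nuclear protein-coding genes took 25.9% of its counts, against 40.4% and 52.8% in EA-BN-H replicates 1 and 2, 49.9% to 59.1% in COPD and 49.4% to 51.0% in NC. TMM scaling, which sets libraries level on the bulk of their genes, gave it a factor of 0.587, while the other 8 libraries had factors between 0.885 and 1.22. Results that rest on this library are therefore given with and without it. The main edgeR fit with TMM scaling was rerun without EA-BN-H replicate 3. DESeq2 and the edgeR fits with other settings, such as library totals or no filter on low counts, were run only with it. Markers of the lung were present in every group, with the summed alveolar type 2 markers Sftpc, Sftpb and Lamp3 at 864 to 1700 CPM in EA-BN-H, 1314 to 2122 CPM in COPD and 1129 to 2181 CPM in NC, where CPM is a count scaled to a common library size. The club cell markers Scgb1a1 and Cyp2f2 summed to 4156 to 9306 CPM in EA-BN-H, 3469 to 7984 CPM in COPD and 9424 to 23705 CPM in NC, so that NC lay above both other groups. The fibroblast markers Col1a1 and Col1a2 summed to 1411 to 2191 CPM in EA-BN-H, 1749 to 2725 CPM in COPD and 696 to 1311 CPM in NC, and the T cell markers Cd3e and Cd3g to 3.41 to 8.24 CPM in EA-BN-H, 5.33 to 11.0 CPM in COPD and 1.58 to 2.61 CPM in NC, with NC below both other groups. The cardiac muscle markers Myh6, Myl7, Tnnt2 and Actc1 summed to 32.1 to 85.9 CPM in EA-BN-H, 56.4 to 183 CPM in COPD and 99.9 to 344 CPM in NC. The neutrophil markers S100a8, S100a9 and Retnlg summed to 4.27 to 64.5 CPM in EA-BN-H, 7.73 to 14.4 CPM in COPD and 3.14 to 4.82 CPM in NC. None of these markers was at 0 in every library, and their part in the results was not tested. In bulk tissue, fewer cells of a type and less RNA per cell cannot be told apart.

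7SL made up a large share of all counts in each library. In EA-BN-H it took 51.0%, 38.2% and 63.5% of the counts in replicates 1, 2 and 3. In COPD it took 41.0%, 39.9% and 32.5%. In NC it took 34.0%, 40.4% and 39.0%. EA-BN-H replicates 1 and 3 lay above every COPD and NC library, while EA-BN-H replicate 2 lay within the range of the COPD and NC libraries, so the groups overlapped. The mean share was 50.9% ± 12.7 in EA-BN-H, 37.8% ± 4.59 in COPD and 37.8% ± 3.34 in NC (SD, n = 3 each). The difference was 13.1 percentage points between EA-BN-H and COPD and 13.1 between EA-BN-H and NC, each with an exact two-sided permutation p of 0.3, and 0.45 after adjustment over 9 tests. Between COPD and NC the difference was -0.02 percentage points (exact permutation p = 1). With 3 libraries against 3 this test cannot go below 0.1. Without EA-BN-H replicate 3 the difference from COPD was 6.78 percentage points and that from NC 6.75. As a share of the deposited TPM, which divides counts by length, the differences over all libraries were 5.11 and 6.13 percentage points (exact permutation p = 0.3 each).

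**Figure D1:**
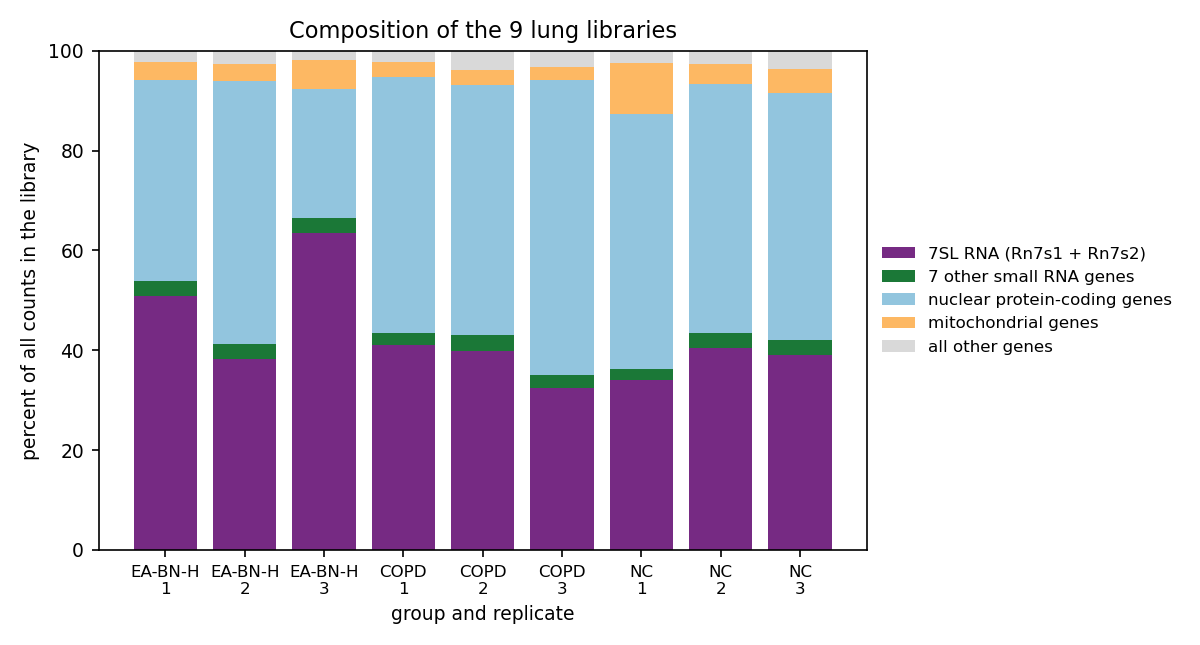
Percent of all counts taken by 7SL RNA, the 7 other small RNA genes, nuclear protein-coding genes, mitochondrial genes and all other genes, as stacked bars for each of the 9 libraries. 7SL took 63.5% of EA-BN-H replicate 3, where nuclear protein-coding genes took 25.9%, and between 32.5% and 51.0% of the other libraries.

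The 7 other RNAs together took 2.25% to 3.26% of the counts, and most of that was 7SK, Rmrp and Rpph1. Levels between genes were compared per length, as the authors' FPKM, in which a count is divided by transcript length and library size. The mean over the 9 libraries was 651143 FPKM for Rn7s1, 603447 for Rn7s2, 41512 for Rn7sk, 22029 for Rmrp, 16733 for Rpph1, 136 for Rnu1a1, 2.77 for Terc, 0.793 for Rny3 and 0.505 for Rny1. The ranges of Rn7s1 and Rn7s2 overlapped. In this order the ranges over libraries did not overlap between Rn7s2 and Rn7sk, between Rpph1 and Rnu1a1, or between Rnu1a1 and Terc. Those of Rn7sk, Rmrp and Rpph1 overlapped, with 27483 to 53790, 11487 to 48106 and 9986 to 24948 FPKM, and so did those of Terc and the Y RNAs. U1 RNA, an abundant RNA of the nucleus, was thus listed far below the RNase RNAs. The Y RNAs, with 101 bases for Rny3 and 111 for Rny1 in the table, are the shortest of the 9, and the labels give reads of 101 bp. The part of length in these levels was not tested.

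Rmrp, the RNA of the RNase that cuts precursor ribosomal RNA, was the RNA whose EA-BN-H libraries stood above both other groups. Its share of counts was 0.693%, 1.03% and 1.47% in EA-BN-H replicates 1 to 3. It was 0.637%, 0.488% and 0.477% in COPD, and 0.584%, 0.363% and 0.357% in NC. All 3 EA-BN-H libraries lay above all 6 others, although EA-BN-H replicate 1 exceeded COPD replicate 1 only narrowly. Of the genes tested, 0.609% had EA-BN-H shares all above those of COPD and 3.35% all above those of NC. Scaled by TMM, the level was 14215 ± 9448 CPM in EA-BN-H, 4802 ± 1181 CPM in COPD and 4000 ± 1216 CPM in NC (SD, n = 3 each). The log2 fold change was 1.57 (SE 0.47) for EA-BN-H against COPD, with an unadjusted p of 0.00743 and a Benjamini-Hochberg adjusted p of 1, over all genes, in edgeR. For EA-BN-H against NC it was 1.83 (SE 0.47), with an unadjusted p of 0.00305 and an adjusted p of 0.0932 in edgeR. For COPD against NC it was 0.26 (SE 0.46), with an adjusted p of 0.852 in edgeR. Without EA-BN-H replicate 3 the values were 0.88 against COPD and 1.14 against NC, with unadjusted p of 0.0324 and 0.00906 in edgeR. The adjusted p against NC was then 0.147 in edgeR. DESeq2, run only with that library, gave an adjusted p of 0.000848 for EA-BN-H against NC and 0.515 for EA-BN-H against COPD.

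Rpph1, the RNA of RNase P, did not follow Rmrp. Its share was 0.597%, 0.666% and 0.449% in EA-BN-H, 0.452%, 0.834% and 0.578% in COPD, and 0.354%, 0.925% and 0.670% in NC. The 3 groups overlapped, with the lowest and the highest library both in NC. The log2 fold change was 0.33 (SE 0.38) for EA-BN-H against COPD, 0.21 (SE 0.38) for EA-BN-H against NC and -0.12 (SE 0.38) for COPD against NC, and the first 2 turned to -0.12 and -0.19 when libraries were scaled by their totals. None was called in edgeR, with adjusted p of 1, 0.885 and 0.931. Per Rpph1 count there were 1.16, 1.54 and 3.28 Rmrp counts in EA-BN-H, 1.41, 0.586 and 0.825 in COPD, and 1.65, 0.392 and 0.533 in NC. This ratio, which needs no scaling between libraries and was chosen after seeing the data, overlapped between the groups. Its log2 difference was 1.04 for EA-BN-H against COPD (exact permutation p = 0.2), 1.36 for EA-BN-H against NC (exact permutation p = 0.3) and 0.33 for COPD against NC (exact permutation p = 0.7). After adjustment over 9 tests these were 0.45, 0.45 and 0.788. Without EA-BN-H replicate 3 the first 2 differences were 0.60 and 0.93.

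7SK RNA, the holder of P-TEFb, overlapped across the groups on each scale. Its share was 1.60%, 1.37% and 1.01% in EA-BN-H, 1.31%, 1.94% and 1.53% in COPD, and 1.31%, 1.87% and 2.02% in NC. All groups overlapped, and the lowest share was that of EA-BN-H replicate 3. Scaled by TMM, Rn7sk averaged 16151 ± 2718 CPM in EA-BN-H, 14172 ± 2668 CPM in COPD and 15917 ± 3319 CPM in NC (SD, n = 3 each). The log2 fold change was 0.19 (SE 0.32) for EA-BN-H against COPD, 0.02 (SE 0.32) for EA-BN-H against NC and -0.17 (SE 0.32) for COPD against NC, and the first 2 were -0.26 and -0.38 with library totals. In edgeR the adjusted p were 1, 0.989 and 0.867. Within a library there were 31.8, 27.8 and 62.6 7SL counts per 7SK count in EA-BN-H, 31.2, 20.6 and 21.2 in COPD, and 26.0, 21.5 and 19.3 in NC. All 3 EA-BN-H libraries exceeded all 3 NC libraries in this ratio, and 2 of them exceeded all 3 COPD libraries. The log2 difference was 0.78 for EA-BN-H against NC (exact permutation p = 0.1, the smallest possible), 0.67 for EA-BN-H against COPD (exact permutation p = 0.2) and 0.11 for COPD against NC (exact permutation p = 0.7). Adjusted over the 9 tests, these were 0.45, 0.45 and 0.788, so the ratio, which was chosen after seeing the data, passed in no comparison. Without EA-BN-H replicate 3 the difference from NC was 0.43 and that from COPD 0.32.

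**Figure D2:**
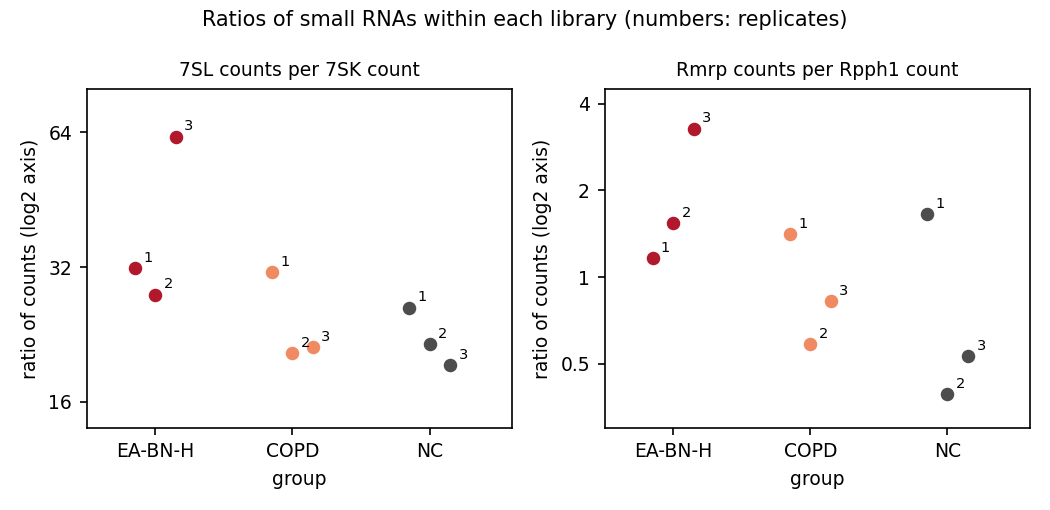
Ratio of 7SL to 7SK counts (left) and of Rmrp to Rpph1 counts (right) within each library, on log2 axes, with groups EA-BN-H, COPD and NC along the horizontal axis and points numbered by replicate. EA-BN-H replicate 3 had the highest value of both ratios, 62.6 and 3.28.

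For 7SL itself, TMM scaling gave a wider difference than the share of counts. The values are those of Rn7s1 unless Rn7s2 is named, as their sum was not fitted. Rn7s1 averaged 353128 ± 195068 CPM in EA-BN-H, 176058 ± 37258 CPM in COPD and 178080 ± 16937 CPM in NC (SD, n = 3 each). The log2 fold change of Rn7s1 was 1.00 (SE 0.52) for EA-BN-H against COPD and 0.99 (SE 0.52) for EA-BN-H against NC, with unadjusted p of 0.0795 and 0.0837 and adjusted p of 1 and 0.431 in edgeR. DESeq2 gave 1.02 and 0.99, with unadjusted p of 0.00596 and 0.00759 and adjusted p of 1.00 and 0.0869. With library totals, which count 7SL in the denominator, the median of all genes shifted to -0.41 and -0.38 and Rn7s1 had 0.44 and 0.46. Without EA-BN-H replicate 3 the TMM values were 0.48 and 0.47. For COPD against NC the log2 fold change was -0.02 (SE 0.51) for Rn7s1 and -0.05 (SE 0.50) for Rn7s2.

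Rnu1a1, the U1 RNA gene, had a low level and, of the 7 RNAs tested, the largest fold change between EA-BN-H and NC. It had 1165, 917 and 1515 counts in EA-BN-H, 724, 969 and 323 in COPD, and 482, 462 and 363 in NC. As a share of counts, the EA-BN-H libraries all exceeded the NC libraries, as was so for 3.35% of the genes tested, while COPD spread across both groups. The TMM-scaled level was 50.6 ± 27.6 CPM in EA-BN-H, 21.4 ± 12.5 CPM in COPD and 12.5 ± 1.76 CPM in NC (SD, n = 3 each). The log2 fold change was 1.24 (SE 0.48) for EA-BN-H against COPD, with an unadjusted p of 0.0256 and an adjusted p of 1 in edgeR. For EA-BN-H against NC it was 2.02 (SE 0.49), with an unadjusted p of 0.00192 and an adjusted p of 0.0759 in edgeR. For COPD against NC it was 0.78 (SE 0.47), with an unadjusted p of 0.132 in edgeR. Without EA-BN-H replicate 3 the first 2 were 0.73 and 1.51, with unadjusted p of 0.137 and 0.00783 in edgeR. The adjusted p against NC was then 0.136 in edgeR. With that library, DESeq2 gave an adjusted p of 0.00186 for EA-BN-H against NC, and edgeR gave 0.036 when no filter on low counts was set. The copies Rnu1b1, Rnu1b2 and Rnu1b6 had 129, 98 and 163 counts over all libraries. For EA-BN-H against NC their log2 fold changes were 2.30, 1.71 and 2.12, with adjusted p of 0.272, 0.533 and 0.316 in edgeR. For COPD against NC they were 1.52, 1.55 and 1.26, with unadjusted p of 0.122, 0.171 and 0.188 in edgeR. For EA-BN-H against COPD they were 0.79, 0.15 and 0.86, with unadjusted p of 0.388, 0.883 and 0.349 in edgeR. Unlike Rnu1a1, each copy had a larger log2 fold change between COPD and NC than between EA-BN-H and COPD.

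Terc and the Y RNAs were near the limit of detection. Terc, the telomerase template, had 39, 75 and 38 counts in EA-BN-H, 16, 13 and 57 in COPD, and 10, 59 and 31 in NC. These overlapped, and the log2 fold changes of 1.16 (SE 0.83) for EA-BN-H against COPD, 0.88 (SE 0.82) for EA-BN-H against NC and -0.28 (SE 0.82) for COPD against NC had adjusted p of 1, 0.725 and 0.922 in edgeR. Rny1 had 0, 3 and 2 counts in EA-BN-H, 9, 0 and 4 in COPD, and 2, 0 and 0 in NC. Rny3 had 0, 2 and 2 counts in EA-BN-H, 1, 0 and 0 in COPD, and 6, 16 and 1 in NC. With 20 and 28 counts in all they did not pass the filter on low counts and were not tested. A count of 0 allows up to 0.0712 to 0.119 CPM of all counts, by library, for counting error only, and no fold is given. All 3 COPD libraries had a lower share of Rny3 than the NC libraries, as did 8.63% of the genes tested, and for Rny3 this rests on 1 count in COPD and 1 to 16 counts per library in NC.

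**Figure D3:**
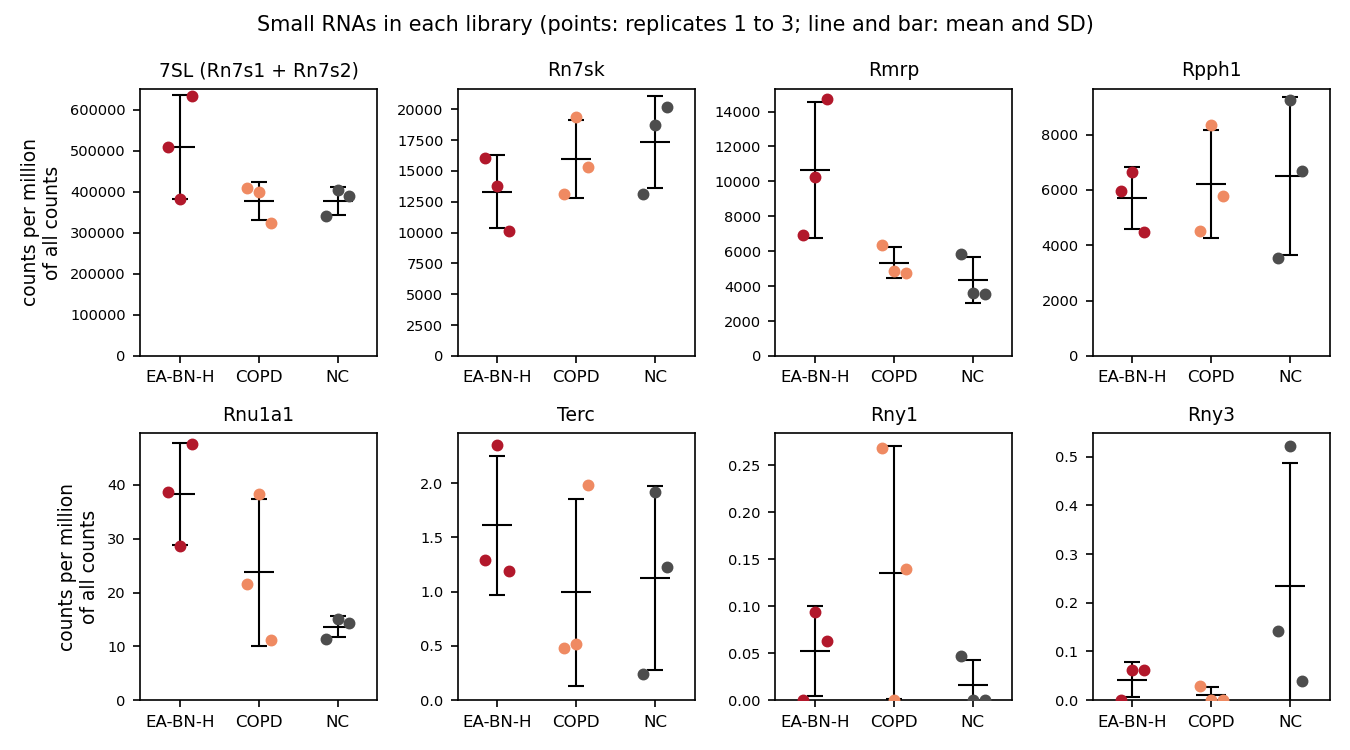
CPM of all counts, not scaled by TMM, for 7SL and the 7 other RNAs, with 1 point per library, and the mean and SD as a line and bar, for EA-BN-H, COPD and NC from left to right. Rmrp is the panel in which all 3 EA-BN-H points lie above all COPD and NC points, and the panels of Rny1 and Rny3 rest on 20 and 28 counts in all.

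Of the 9 RNAs, 7 passed the filter and were tested. Rn7s1 and Rn7s2 are counted separately among them, although their reads cannot be told apart. At an adjusted p under 0.05 in edgeR, 0 were called for EA-BN-H against COPD, where 0% of the 18716 genes tested were called, 0 for EA-BN-H against NC, where 1.27% were, and 0 for COPD against NC, where 1.68% were. At an unadjusted p under 0.05 edgeR had 2, 2 and 0 of the 7, beside 1.62%, 14.6% and 15.6% of the genes tested. DESeq2 called 0, 2 and 0 at the adjusted p, beside 0.0161%, 6.93% and 7.51% of genes, and the 2 were Rmrp and Rnu1a1 each time. The study's thresholds were a log2 fold change of 1 or more in size with p under 0.05, on shrunken fold changes from DESeq2, and are applied here to unadjusted p and to fold changes that were not shrunken. By these, in edgeR, Rmrp and Rnu1a1 passed when EA-BN-H was set against COPD, beside 0.844% of all genes, and the same 2 passed when it was set against NC, beside 8.39%. For COPD against NC 0 passed, beside 9.58% of all genes. In DESeq2 Rn7s1 passed as well for EA-BN-H against COPD with 1.02, which made 3 beside 1.27% of all genes. Rn7s2, of the same sequence, had 0.993 there and did not pass. The other DESeq2 counts were 2 beside 9.38% for EA-BN-H against NC and 0 beside 10.8% between COPD and NC. By edgeR, for EA-BN-H against COPD, Rnu1a1 lost this call without EA-BN-H replicate 3 (0.73), without COPD replicate 3 (0.88) and with library totals (0.69). It also lost it without COPD replicate 1 and with a block on replicate number. There its log2 fold changes of 1.22 and 1.26 had unadjusted p of 0.0625 and 0.055 in edgeR. Rmrp lost it without EA-BN-H replicate 3 and with library totals, where its log2 fold change was 0.99. Without EA-BN-H replicate 2, Rn7s1 and Rn7s2 passed as well, with 1.31 and 1.27 against COPD and 1.29 and 1.21 against NC. Without COPD replicate 3, Rnu1a1 passed for COPD against NC with 1.14. Counted by libraries, Rmrp alone of the 9 had EA-BN-H shares that were all above those of COPD, as did 0.609% of genes tested. Rmrp and Rnu1a1 had EA-BN-H shares all above those of NC, as did 3.35%, and 0 of the 9 had COPD shares all above those of NC, as did 14.8%. The comparisons of EA-BN-H with COPD and with NC share the EA-BN-H libraries, so the second is not a repeat of the first.

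**Figure D4:**
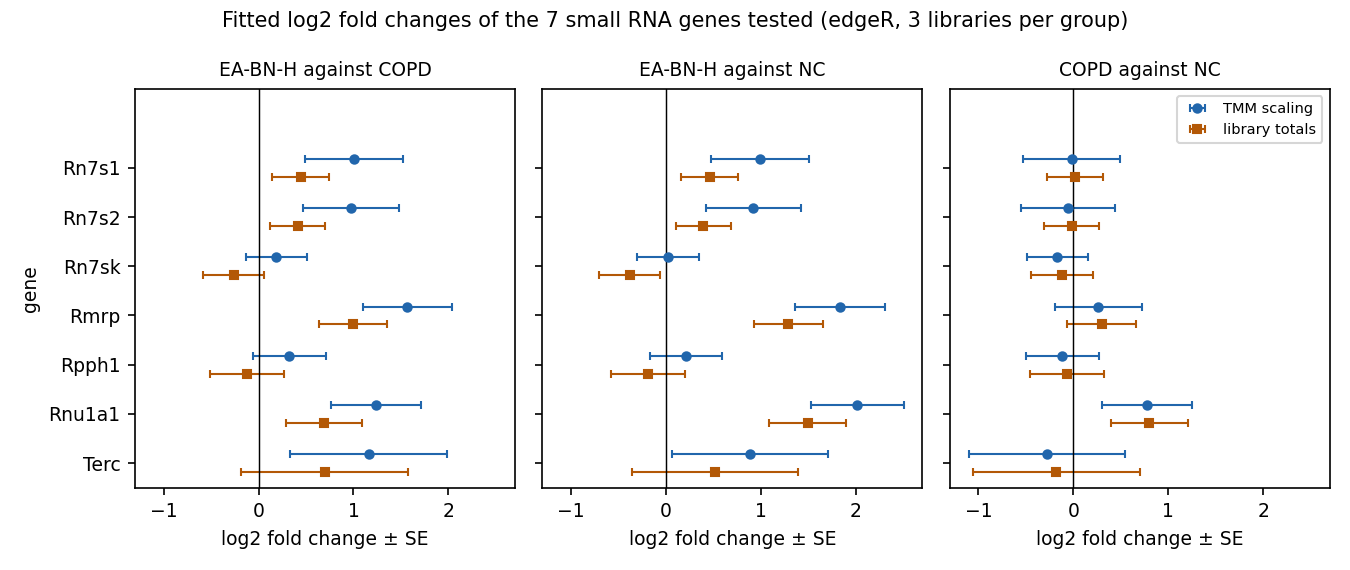
Log2 fold change with SE from edgeR for the 7 RNAs tested in the 3 comparisons, with TMM scaling (circles) and library totals (squares), and a vertical line at 0. With TMM scaling Rmrp stood at 1.57 and 1.83 and Rnu1a1 at 1.24 and 2.02 in the EA-BN-H comparisons, while Rn7sk and Rpph1 changed sign between the scalings there.

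Across the 9 libraries, the log2 CPM of 7SL followed that of Rnu1a1 with a Pearson r of 0.873 and that of Rmrp with 0.845. With EA-BN-H replicate 3 left out, the extreme point for both, these were 0.783 and 0.472 over 8 libraries. Rn7sk followed Rpph1 with 0.809, and with 0.792 without that library. Rmrp had 0.176 with Rpph1 and 0.027 with Rn7sk, and -0.150 and -0.348 without it. These values are descriptions over libraries that share their groups and scaling factors. Among 13216 genes with a mean of at least 50 counts, the 5 closest to 7SL were Stk11ip (r = 0.924), Rn18s-rs5 (0.877), Gga1 (0.862), Nr2c2ap (0.862) and Sh3glb2 (0.861), which had 0.674, 0.798, 0.752, 0.651 and 0.577 without EA-BN-H replicate 3. The 3 closest to Rmrp were Tsen54 (0.905), Htr4 (0.890) and Gpr137 (0.878), and the 3 closest to Rpph1 were Ccdc142 (0.980), Smad6 (0.945) and Setd1a (0.938). Without that library the values were 0.862, 0.886 and 0.699 for Rmrp and 0.979, 0.946 and 0.941 for Rpph1.

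Of 75 protein genes tested from 7 lists of partners of these RNAs, edgeR called 0 at an adjusted p under 0.05 in any comparison, while 2 had an unadjusted p under 0.05 in EA-BN-H against COPD, 9 in EA-BN-H against NC and 3 in COPD against NC, where 1.62%, 14.6% and 15.6% of all genes tested did. DESeq2 called 0, 1 and 1, in both cases Ro60, beside 0.0161%, 6.93% and 7.51% of all genes. Of the signal recognition particle and its receptor, 10 of 11 listed genes were tested. Their median log2 fold change was -0.11 between EA-BN-H and COPD, -0.11 between EA-BN-H and NC and -0.15 between COPD and NC. The medians of all genes were 0.00, 0.00 and -0.02. Without EA-BN-H replicate 3 the medians of this list were -0.00014 between EA-BN-H and COPD and -0.043 between EA-BN-H and NC. Srp9, of the domain that pauses translation, had 14.3 ± 1.75 CPM in EA-BN-H, 20.6 ± 3.22 CPM in COPD and 21.6 ± 6.50 CPM in NC. Its log2 fold change was -0.59 for EA-BN-H against NC (unadjusted p = 0.0383 and adjusted p = 0.302 in edgeR). Srp14, its partner, had 0.12, and Srp54a, Srp68 and Srp72 had -0.37, -0.14 and -0.08 in that comparison. The 10 RNase P and MRP protein genes tested had medians of 0.10, 0.03 and -0.01 in the same order of comparisons. Pop1, the largest shared protein, had 0.04 for EA-BN-H against COPD, and Rpp30 and Rpp38 had 0.28 and 0.16. None of the RNase P and MRP proteins had an unadjusted p under 0.05 in edgeR, whereas Srp9 and Srp54b did for EA-BN-H against NC.

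The 7 proteins of the 7SK particle had medians of 0.00, 0.02 and -0.01, in that same order. Between EA-BN-H and COPD, Hexim1, the P-TEFb inhibitor, had 0.07. Larp7, which binds the end of 7SK, had -0.26, and Mepce, which caps it, had 0.05. The lowest value of this list in that comparison was -0.41. The P-TEFb genes Ccnt1, in that comparison, and Cdk9, for EA-BN-H against NC, had an unadjusted p under 0.05 in edgeR. The 10 U1 particle and Sm protein genes had medians of 0.08, 0.10 and 0.06. The U1 proteins Snrnp70, Snrpa and Snrpc had 0.24, 0.62 and 0.63 for EA-BN-H against NC, with adjusted p of 0.810, 0.267 and 0.482 in edgeR. The 7 telomerase protein genes had medians of 0.12, -0.11 and -0.11. The first 2 were 0.025 and -0.081 without EA-BN-H replicate 3. Tert, the reverse transcriptase, had 0.35 and Dkc1, which stabilises Terc, had -0.21 for EA-BN-H against COPD. The 29 genes of the RNA polymerase III machinery had medians of 0.01, -0.03 and 0.00. Of these, Polr3a, the largest subunit, had 0.01 for EA-BN-H against COPD. The initiation factor genes Brf1, Brf2 and Bdp1 had -0.07, 0.05 and -0.04, and Maf1, a repressor of this polymerase, had 0.13. The whole list ran from -0.48 to 0.97 in that comparison and from -1.07 to 0.33 for COPD against NC. Polr3g had an unadjusted p under 0.05 in edgeR in both of these comparisons. For EA-BN-H against NC the list ran from -0.56 to 0.56, and Polr3c, Polr3d and Pou2f1 had an unadjusted p under 0.05 in edgeR.

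Among the partner proteins named with their own fold change, the Y RNA-binding protein gene Ro60 had the widest difference. It averaged 36.3 ± 8.13 CPM in EA-BN-H, 39.6 ± 4.19 CPM in COPD and 74.1 ± 19.7 CPM in NC (SD, n = 3 each). The log2 fold change was -1.03 (SE 0.24) for EA-BN-H against NC and -0.90 (SE 0.24) for COPD against NC, with adjusted p of 0.0713 and 0.0945 in edgeR, and -0.13 (SE 0.24) for EA-BN-H against COPD. Ssb, the La protein that binds the ends of new RNA polymerase III transcripts, had -0.41, -0.20 and -0.21 in these comparisons.

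Of other small RNA genes, 40 of 123 snoRNA and scaRNA genes were tested, and neither edgeR nor DESeq2 called any at an adjusted p under 0.05, while 2, 1 and 1 had an unadjusted p under 0.05 in edgeR, beside the same 1.62%, 14.6% and 15.6% of all genes. In the same order, EA-BN-H against COPD first, their median log2 fold change was -0.02, 0.33 and 0.25. A further list of 23 spliceosomal, U3, vault and BC1 RNA genes had 12 tested and again 0 called by edgeR or DESeq2, with 0, 2 and 0 at an unadjusted p under 0.05 in edgeR, beside those same shares, the 2 being Rnu1b1 and Rnu1b6. Its medians were 0.10 for EA-BN-H against COPD, 1.00 for EA-BN-H against NC and 0.97 for COPD against NC, and 11 of the 12 were positive in each comparison with NC, where the median of all genes was 0.00 and -0.02. The NC libraries are shared by these comparisons, and 5 of the 12 are U3 genes whose reads may not be separable. The same holds for the U1 copies Rnu1b1, Rnu1b2 and Rnu1b6 of this list, at 95.2% to 95.8% identity to Rnu1a1. Rnu12, the U12 RNA gene of the minor spliceosome, had 113 counts in all and a log2 fold change of 0.25 for EA-BN-H against NC, and Rnu11 with 52 counts did not pass the filter. Genes beside the RNAs gave no call either: for EA-BN-H against COPD, Ccdc107 over Rmrp had -0.07 and Parp2 at 70 bp from Rpph1 had 0.08 (adjusted p = 1 each in edgeR).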

How the data were processed

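The expected counts, FPKM and TPM of 129299 RefSeq transcripts were deposited by the authors in 1 table. Build mm10, HISAT2 2.1.0, StringTie 2.1.3b, Trimmomatic 0.38 and DESeq2 stand in the submitters' processing notes, whereas the paper names HTSeq. The labels give the TruSeq Stranded Total RNA Gold kit and reads of 101 bp, whereas the paper names the TruSeq RNA Sample Prep Kit and reads of 100 bp. Which kit was used cannot be told from the sources used here. Whether counting used strand is not given in the sources used here. The deposited estimated counts were whole numbers and were not normalized, while the authors scaled FPKM and TPM by length and depth, TPM to a constant sum. No reads were reprocessed.

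Counts were summed by gene. After filterByExpr, 18716 genes were scaled by TMM and fitted over all 9 libraries with the quasi-likelihood test of edgeR 4.0.16 (R 4.3.3), with Benjamini-Hochberg adjustment over all genes, and checked with DESeq2 1.42.0 and on simulated data. CPM are TMM-scaled unless said otherwise. Shares and ratios were compared by two-sided exact permutation tests. Correlations used log2 CPM with a prior count of 2. Replicate numbers did not pair the libraries, with residual correlations from -0.243 to 0.127. Alternatives were other scalings, no filter, DESeq2, a replicate block, only the groups compared, and leaving out each library. Sequences and neighbours came from GENCODE M21, with copies found by blastn. All 9 RNAs, listed partners and the genes of closest pattern were named. The RNAs, lists and tests were chosen with earlier results of these data known, and the ratios after seeing the data. The sequence of 7SL RNA is not reported here.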

Additional observations from a re-analysis of the deposited data

How the results depend on the processing

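Of 357 alternative values of the fold changes of the RNAs, 332 kept their direction and their side of an adjusted p of 0.05, 3 newly passed it and 22 changed sign. The 3 are Rmrp (1.83) and Rnu1a1 (2.02) between EA-BN-H and NC in DESeq2 and Rnu1a1 (2.01) with no filter, so the count of these RNAs called there was 2 in DESeq2 and 1 with no filter, against 0. With library totals, between EA-BN-H and COPD Rn7sk had -0.26 and Rpph1 -0.12, and between EA-BN-H and NC they had -0.38 and -0.19. Rn7sk had -0.029 against NC when 7SL was left out of the totals. For COPD and NC, Rn7s1 was near 0 and had 0.016 with library totals and 0.023 with totals that leave 7SL out. Leaving out each library, values between COPD and NC ran from -0.15 to 0.14 for Rn7s1, -0.17 to 0.074 for Rn7s2, -0.41 to 0.23 for Rpph1 and -1.16 to 0.38 for Terc. For EA-BN-H and NC they ran from -0.14 to 0.15 for Rn7sk and -0.083 to 0.56 for Rpph1. The 7SL share, COPD minus NC, ran from -1.91 to 2.61 percentage points, and was 1.02 as a share of TPM and 0.215 for Rn7s1 alone. The log2 difference of the 7SL to 7SK ratio ran from -0.083 to 0.23, and that of Rmrp to Rpph1 from -0.094 to 0.94. The RNAs past the study's thresholds numbered 0 to 4 between EA-BN-H and COPD, 2 to 4 for EA-BN-H and NC, and 0 to 1 for COPD and NC. These numbers count Rn7s1 and Rn7s2 separately. With library totals 0 passed for EA-BN-H and COPD, and in DESeq2 3 did.

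Counts of all genes at an adjusted p under 0.05 depended more on the processing. Between EA-BN-H and NC there were 237 in edgeR, 98 with library totals, 485 with no filter, 0 with only the groups compared, 1295 in DESeq2 and 0 to 432 leaving out each library. Between EA-BN-H and COPD there were 0 in edgeR, with 304 genes at an unadjusted p under 0.05, and 3 in DESeq2. Between COPD and NC there were 314 in edgeR, 575 with no filter, 732 with only the groups compared, 1402 in DESeq2 and 0 to 993 leaving out each library. The causes were not tested.

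The replicate numbers showed no pairing. With a replicate block, 0 genes were called in each comparison, 1 of the RNAs, Rmrp, passed the study's thresholds for EA-BN-H and COPD. Rn7s1 had 0.00498 for COPD and NC.

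With 3 libraries per group a share cannot reach a p under 0.1, Terc and the Y RNAs rest on few counts, and the EA-BN-H fold changes of 7SL, Rmrp and Rnu1a1 were smaller without EA-BN-H replicate 3. 7SL takes 32.5% to 63.5% of the counts, which enter every library total.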
